A study of Mus musculus with 16 samples.

Results

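The genes described here were 10 named members of the Nodal and BMP signaling pathways, chosen by symbol from the 22375 genes of the count tables: Nodal, Gdf3, Tdgf1, Lefty1, Lefty2, Smad7, Bmp4, Id1, Id2 and Id3. All 10 were in the tables and passed the filter on low counts. RNA-Seq of ribosomal RNA-depleted total RNA compared WT mouse embryonic stem (ES) cells of the E14Tg2a line with Cfp1-/- ES cells, with and without doxorubicin, a DNA damaging agent. The study asked what Cfp1, a CpG-binding component of the Set1 histone methyltransferase complexes, does to the promoter mark H3K4me3 when genes are switched quickly, and the RNA-Seq gives the transcript levels. The 4 groups were untreated WT cells, WT cells given doxorubicin for 6 hours, untreated Cfp1-/- cells and Cfp1-/- cells given doxorubicin for 6 hours. Each group had 2 biological replicates, and each replicate was sequenced in 2 technical runs that were summed. All cells were of strain 129/OLA and were grown on gelatin with serum and LIF. The dose was 1 μM in the protocol, whereas the treatment label of the samples gives 1 mM. WT and Cfp1-/- cells are different lines. Nothing in the labels says that the biological replicates came from separate cultures, so p-values measure only the spread between these samples, which may be technical.

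Nodal and Gdf3 are secreted ligands of the TGF-beta superfamily that signal with the co-receptor encoded by Tdgf1 (Cripto) through activin receptors to Smad2 and Smad3. Lefty1 and Lefty2 are secreted antagonists of Nodal and are themselves targets of the pathway, which makes a feedback loop in the early embryo. Bmp4 signals through BMP receptors to Smad1, Smad5 and Smad9, and the Id genes, which encode inhibitors of basic helix-loop-helix transcription factors, are classic BMP targets. In ES cells grown with serum and LIF, BMP signaling and Id proteins are known to help hold back differentiation. Smad7 is an inhibitory Smad that dampens both branches.

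The promoters of 3 genes are printed because Cfp1 binds unmethylated CpG dinucleotides and because these genes gave different patterns: Nodal was higher after doxorubicin, Tdgf1 was the most abundant of the 10, and Id3 was lower in Cfp1-/- cells. Each window runs from 250 bases before to 50 bases after the start site, in the RefSeq table for GRCm38.p6, a later build than the NCBIm37 of the count tables. Windows of 5 of the 10 genes were examined, namely Bmp4, Id2, Id3, Nodal and Tdgf1. Lefty1, Lefty2, Gdf3 and Id1 were not in the table. Smad7 was left out, so its window was not examined. Capitals mark CpG dinucleotides, read 5' to 3' on the gene's strand (Nodal chr10:61417722-61418021, plus strand; Tdgf1 chr9:110946109-110946408, minus strand; Id3 chr4:136143572-136143871, plus strand).
Nodal: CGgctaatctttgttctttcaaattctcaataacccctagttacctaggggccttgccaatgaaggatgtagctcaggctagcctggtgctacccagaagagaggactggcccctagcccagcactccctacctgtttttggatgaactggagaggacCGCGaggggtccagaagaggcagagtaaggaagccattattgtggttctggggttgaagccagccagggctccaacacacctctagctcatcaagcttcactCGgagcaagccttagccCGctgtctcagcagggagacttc
Tdgf1: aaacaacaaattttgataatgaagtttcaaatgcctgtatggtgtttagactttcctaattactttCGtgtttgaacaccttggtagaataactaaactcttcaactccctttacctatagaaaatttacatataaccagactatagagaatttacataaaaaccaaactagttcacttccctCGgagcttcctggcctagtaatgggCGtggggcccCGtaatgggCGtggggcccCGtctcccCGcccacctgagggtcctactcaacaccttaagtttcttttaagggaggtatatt
Id3: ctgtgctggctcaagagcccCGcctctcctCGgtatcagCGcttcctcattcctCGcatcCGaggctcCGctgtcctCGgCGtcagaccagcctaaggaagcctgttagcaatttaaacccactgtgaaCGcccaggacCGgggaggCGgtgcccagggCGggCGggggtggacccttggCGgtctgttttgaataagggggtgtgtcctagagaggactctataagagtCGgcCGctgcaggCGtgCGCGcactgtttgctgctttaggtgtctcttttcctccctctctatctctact
The windows held 5 CpGs for Nodal, 7 for Tdgf1 and 19 for Id3, beside 12 for Bmp4 and 21 for Id2, and the median over 32851 promoters of the table was 7. The letters CAGAC, searched on both strands, occurred 1 time in the Tdgf1 window and 2 times in the Id3 window but not in those of Nodal, Bmp4 or Id2. Of all promoters 49.6% hold them. The letters AATCCACA, also searched on both strands, occurred in none of the 5 windows and in 0.855% of all promoters.

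Total counts per biological replicate were 23383421 to 29422711 in untreated and 14880589 to 18551086 in treated cells, so every treated library had fewer counts than every untreated one. Between the technical runs of a replicate, the chi-square over its degrees of freedom was 0.998 to 1.05 in 6 of the 8 replicates, which is what sampling alone gives. It was 9.61 in replicate 1 of treated WT cells and 42.9 in replicate 1 of treated Cfp1-/- cells. No member was at 0 in a second run, but their counts in the second run over the first varied. This ratio was 0.444 to 0.871 in that WT replicate, against 0.58 for total counts, and 0.333 to 0.79 in that Cfp1-/- replicate, against 0.518. The second run of the WT replicate was not left out on its own. Cxxc1, the gene encoding Cfp1, gave 1199 and 1164 normalized counts in untreated WT cells and 807 and 876 in treated WT cells, against at most 5.1 in every Cfp1-/- library, in keeping with the genotype labels. All 8 ES cell markers (Pou5f1, Sox2, Nanog, Zfp42, Esrrb, Klf4, Dppa3 and Utf1) were detected, with summed normalized counts of 41526 to 61953 in untreated libraries and 17191 to 23794 in treated ones, and all 8 fell with doxorubicin in both lines. These sums hide differences between the untreated lines in both directions. Nanog (mean 13544 in Cfp1-/- against 5035 in WT), Dppa3 (2263 against 797) and Utf1 (851 against 526) were called higher in Cfp1-/- cells. Pou5f1 (9563 against 15280) and Zfp42 (5056 against 12814) were called lower, and Sox2, Esrrb and Klf4 did not pass. The 4 primed epiblast markers summed to 9979 to 24971 untreated and 4298 to 8466 treated. Fibroblast markers summed to 232 and 203 in untreated and 508 and 346 in treated WT cells. In Cfp1-/- cells they summed to 59.3 and 51.6 untreated and 285 and 336 treated. Primitive endoderm markers summed to 105 and 71.9 in untreated and 289 and 270 in treated WT cells. Their sums in Cfp1-/- cells were 216 and 227 untreated and 547 and 508 treated. Between untreated lines, Fgf5 and Otx2 of the primed epiblast markers were lower in Cfp1-/- cells, with means of 36.1 against 384 and 800.2 against 1565, Dnmt3b did not pass (10381 against 17924), and Pou3f1 was higher, at 0 in all WT libraries and 84.4 to 262 in Cfp1-/- libraries. The 3 neuroectoderm markers in the tables (Pax6, Nes and Zic1) summed to 2797 and 3787 in untreated WT, 1168 and 3358 in treated WT, 813 and 1177 in untreated Cfp1-/-, and 508 and 560.1 in treated Cfp1-/- cells. Of these, Nes gave 1026 and 3036 in the replicates of untreated WT cells, and Pax6 averaged 1249 in untreated WT and 99.4 in untreated Cfp1-/- cells. The part of these markers in the results below was not tested, and in bulk RNA fewer cells of a type cannot be told apart from less RNA per cell.

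**Figure D1:**
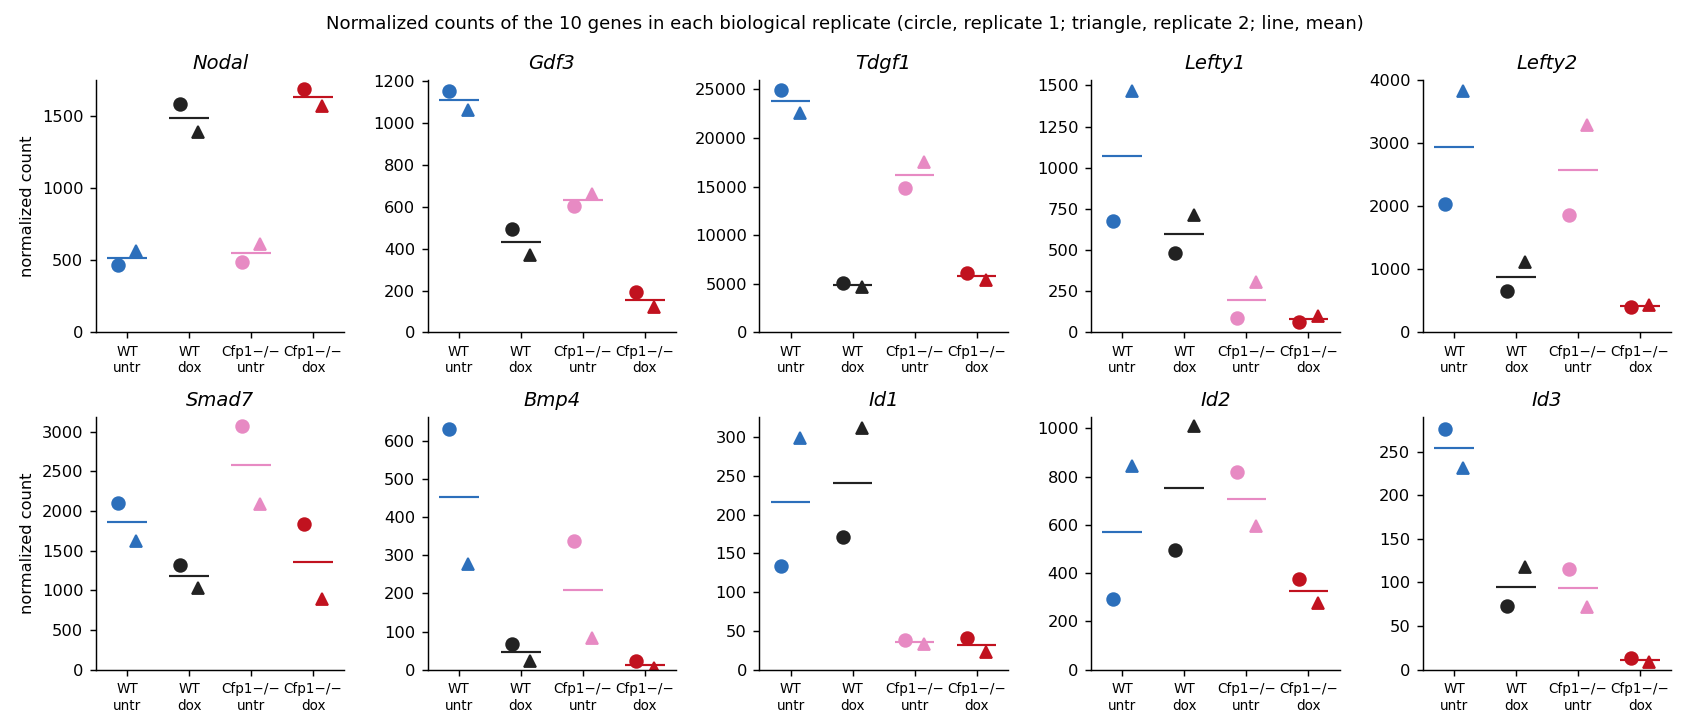
Normalized counts (y axis, from 0, own scale per gene) of the 10 genes in the 4 groups (untr, untreated; dox, doxorubicin), with replicate 1 as a circle, replicate 2 as a triangle and the mean as a line. Nodal lay at 1389 to 1690 in treated libraries and 467 to 614 in untreated ones, while Id1 stayed at or below 40.9 in every Cfp1-/- library.

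Per kilobase of exon, Tdgf1 was the most abundant of the 10 genes in every group, at 12366 ± 869 normalized counts per kb in untreated WT cells and 8407 ± 982 in untreated Cfp1-/- cells (SD, n = 2). Lefty2 came next in both, at 1124 ± 489 and 988 ± 388. In untreated WT cells the order then ran Lefty1, Gdf3, Id2, Smad7, Nodal, Bmp4, Id1 and Id3, from 609.6 down to 142 per kb. Neighbors in that order overlapped in their replicates apart from Tdgf1 with Lefty2 and Smad7 with Nodal. Nodal moved to the second place in both treated groups, at 709 ± 64.4 per kb in WT and 778 ± 40.1 per kb in Cfp1-/- cells, where it overlapped Id2 in WT and no neighbor in Cfp1-/- cells. Bmp4 and Id3 were the lowest in treated Cfp1-/- cells, at 6.15 and 6.13 per kb, with overlapping replicates.

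In WT cells doxorubicin changed 6 of the 10 genes at an adjusted p under 0.05 (edgeR's quasi-likelihood test, Benjamini-Hochberg adjustment over 15758 genes). Nodal rose, and Lefty2, Tdgf1, Gdf3, Id3 and Bmp4 fell. Of all genes tested 48.3% passed in this comparison, 26.5% higher and 21.8% lower. In Cfp1-/- cells 7 genes passed, the same 6 in the same directions and Smad7, which fell, where 48.8% of all genes passed, 27.8% higher and 21.0% lower. Treated and untreated replicates did not overlap for 7 of the 10 genes in WT and 8 in Cfp1-/- cells, against 73.5% and 77.5% of all genes, so these shares lay near the background. With the study's limits of a 2.5-fold change and a mean of 200 normalized counts 4 of the 10 passed in each line, against 7.91% and 7.61% of all genes. The median log2 fold change of the 10 was -1.05 in WT and -1.34 in Cfp1-/- cells, where the medians over all tested genes were 0.057 and 0.014. Scaling by total counts instead of TMM moved the median of all genes up by 0.31 in WT and 0.21 in Cfp1-/- cells, and it ended the call of Smad7 in Cfp1-/- cells (-0.67, adjusted p = 0.105). With this scaling Id1 in Cfp1-/- cells also turned from -0.13 to 0.084, neither of which passed.

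**Figure D2:**
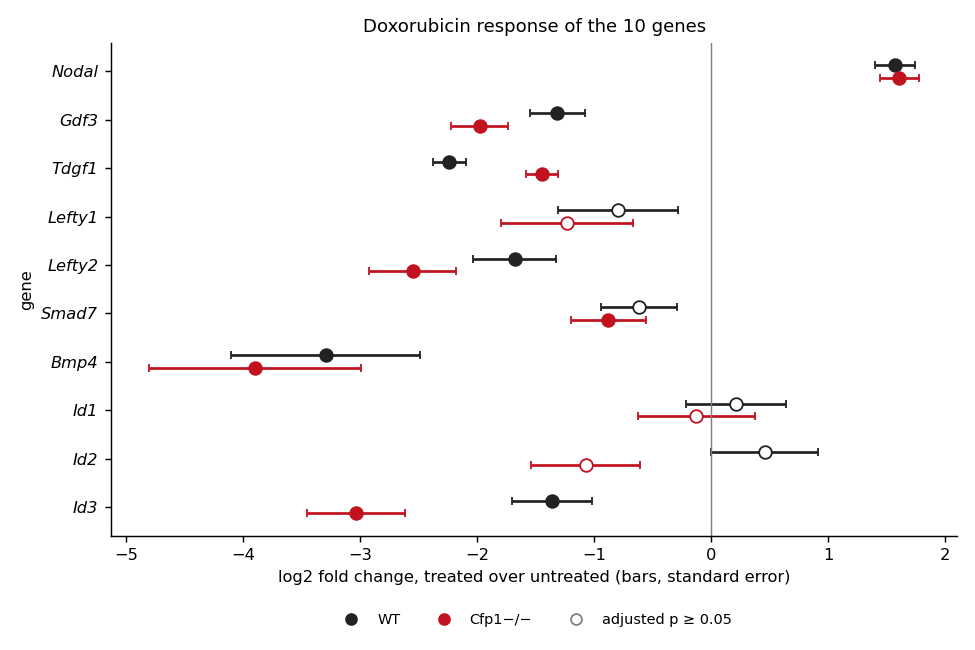
Log2 fold change with doxorubicin (x axis, bars are the standard error) of each gene in WT (black) and Cfp1-/- cells (red), with open circles where the adjusted p was 0.05 or more. Nodal was the only one of the 10 with filled points to the right of 0, at 1.57 and 1.61.

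Nodal (ENSMUSG00000037171, NCBIm37 chromosome 10, 60880720 to 60888086, plus strand) was measured over 3 exon blocks. It gave 467 and 566 normalized counts in untreated WT cells, 1579.8 and 1389 in treated WT cells, 489 and 614 in untreated Cfp1-/- cells, and 1690 and 1571 in treated Cfp1-/- cells. Every treated library lay above every untreated one, and the lines overlapped at each treatment. The rise was 2.97-fold in WT (log2 1.57, standard error 0.169, adjusted p = 7.4e-05) and 3.05-fold in Cfp1-/- cells (log2 1.61, standard error 0.168, adjusted p = 6.69e-05). The difference between these responses was 0.038 ± 0.234 (log2, standard error, adjusted p = 0.978).

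Gdf3 (ENSMUSG00000030117, chromosome 6, 122555421 to 122560105, minus strand), the second ligand, went the other way. It gave 1156 and 1065 normalized counts in untreated WT, 496 and 369.7 in treated WT, 603 and 662 in untreated Cfp1-/-, and 192 and 119 in treated Cfp1-/- cells. No group overlapped another. Gdf3 fell in WT (log2 -1.31, standard error 0.234, adjusted p = 0.00137) and in Cfp1-/- cells (log2 -1.98, standard error 0.244, adjusted p = 0.000175). Its neighbor Apobec1, 2959 bases away, rose in both lines (log2 2.94 in WT and 1.49 in Cfp1-/- cells), and Dppa3, 16323 bases away, fell in both (-0.87 and -0.74).

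Tdgf1 (ENSMUSG00000032494, chromosome 9, 110842114 to 110848662, minus strand), the co-receptor, gave 24987 and 22620.1 normalized counts in untreated WT cells and 5048 and 4711 in treated WT cells. In Cfp1-/- cells it gave 14846 and 17521 untreated and 6122 and 5383 treated. All treated libraries were below all untreated ones, and the lines were further apart before treatment than after it. Tdgf1 fell in WT (log2 -2.24, standard error 0.142, adjusted p = 5.26e-06) and in Cfp1-/- cells (log2 -1.45, standard error 0.139, adjusted p = 4.29e-05). The difference of the responses, 0.79 ± 0.193, did not pass (adjusted p = 0.182), although DESeq2 gave an adjusted p of 0.0314. Of its neighbors, Lrrc2, 5387 bases away, fell in both lines (log2 -1.03 and -0.95), and Als2cl, 39080 bases away, rose in both (0.93 and 0.79).

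Lefty2 (ENSMUSG00000066652, chromosome 1, 182823239 to 182829234, plus strand) gave 2033 and 3839 normalized counts in untreated WT, 651 and 1117 in treated WT, 1863 and 3295 in untreated Cfp1-/-, and 409 and 442 in treated Cfp1-/- cells. The untreated and treated ranges did not overlap in either line. Lefty2 fell in WT (log2 -1.68, standard error 0.358, adjusted p = 0.00378) and in Cfp1-/- cells (log2 -2.55, standard error 0.372, adjusted p = 0.000455). The other antagonist, Lefty1 (ENSMUSG00000038793, chromosome 1, 182865153 to 182868531, plus strand), gave 679 and 1465 in untreated WT, 483 and 711 in treated WT, 88.1 and 309 in untreated Cfp1-/-, and 61.3 and 102 in treated Cfp1-/- cells. Treated and untreated replicates of Lefty1 overlapped in both lines. Its log2 fold changes of -0.79 ± 0.512 in WT (adjusted p = 0.229) and -1.23 ± 0.566 in Cfp1-/- cells (adjusted p = 0.0977) did not pass, but with the replicate block both did, at -0.71 (adjusted p = 0.0194) and -1.12 (adjusted p = 0.00389). The Cfp1-/- value also passed without the filter on low counts (-1.25, adjusted p = 0.0257). These values rested on single untreated libraries. In Cfp1-/- cells the value was -1.88 (adjusted p = 0.0142) without replicate 1 and -0.080 (adjusted p = 0.92) without replicate 2 of untreated cells. In WT it was -1.25 without replicate 1 and -0.15 (adjusted p = 0.853) without replicate 2 of untreated cells. Lefty1 and Lefty2 lie 35919 bases apart, and 11.2% of the 75-base windows of Lefty1 also occur in Lefty2 (7.21% of those of Lefty2), so reads from these stretches are uncertain.

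Smad7 (ENSMUSG00000025880) gave 2102 and 1618 normalized counts in untreated WT, 1324 and 1027 in treated WT, 3073 and 2091 in untreated Cfp1-/-, and 1838 and 888 in treated Cfp1-/- cells. Treated libraries lay below the untreated ones in both lines. Smad7 fell in Cfp1-/- cells (log2 -0.88, standard error 0.321, adjusted p = 0.0452), while its value in WT was -0.62 ± 0.322 (adjusted p = 0.141). The WT value passed with the replicate block (-0.61, adjusted p = 0.007) and with only the 2 groups in the fit (-0.61, adjusted p = 0.0438). It did not pass with any 1 library left out (-0.82 to -0.42). The call in Cfp1-/- cells rested on single libraries, with -0.58 (adjusted p = 0.239) without replicate 1 of untreated and -0.44 (adjusted p = 0.261) without replicate 2 of treated Cfp1-/- cells. Without replicate 1 of treated Cfp1-/- cells it was -1.52.

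**Figure D3:**
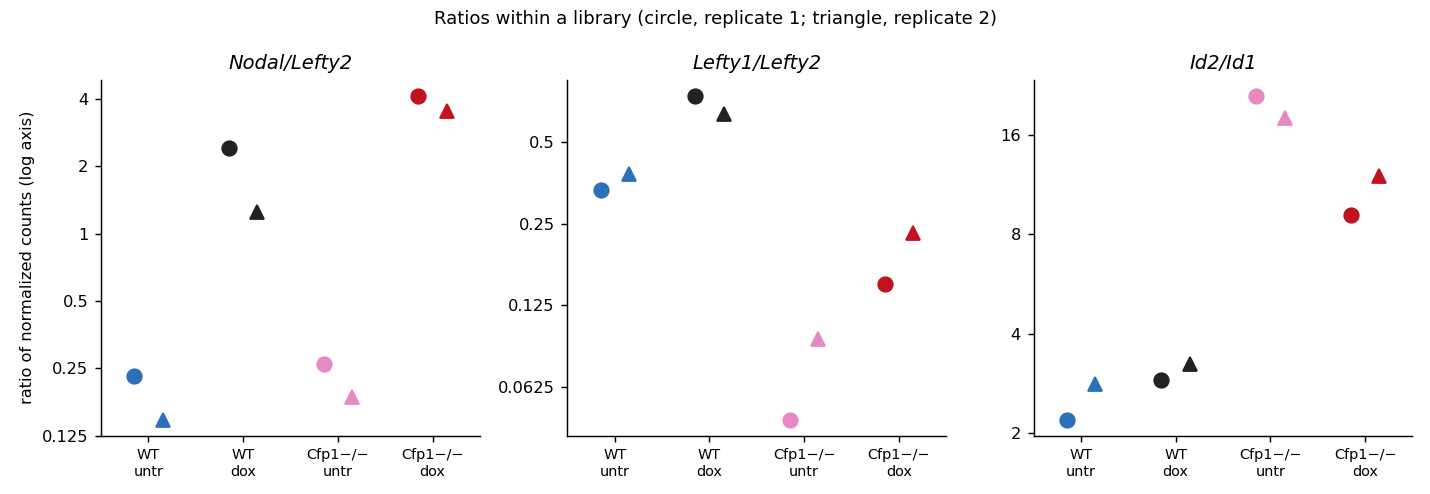
Ratio of normalized counts within each library (log axis) for Nodal over Lefty2, Lefty1 over Lefty2 and Id2 over Id1, by group, with replicate 1 as a circle and replicate 2 as a triangle. Nodal over Lefty2 was 0.147 to 0.262 in untreated libraries and 1.24 to 4.13 in treated ones, and Id2 over Id1 was 2.2 to 3.24 in WT and 9.15 to 21 in Cfp1-/- libraries.

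The ratio of ligand to antagonist was computed within each library. Nodal over Lefty2, as normalized counts, was 0.23 and 0.147 in untreated WT cells, 2.43 and 1.24 in treated WT cells, 0.262 and 0.186 in untreated Cfp1-/- cells, and 4.13 and 3.55 in treated Cfp1-/- cells. The ratio was below 1 in all untreated and above 1 in all treated libraries. Lefty1 over Lefty2 was 0.334 to 0.742 in the 4 WT libraries and 0.0473 to 0.231 in the 4 Cfp1-/- libraries, which did not overlap.

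Bmp4 (ENSMUSG00000021835, chromosome 14, 47003195 to 47010344, minus strand) showed the largest fitted fall of the 10 genes with doxorubicin, down to low counts. It gave 631 and 277 normalized counts in untreated WT, 68.1 and 23.2 in treated WT, 336 and 82 in untreated Cfp1-/-, and 23.5 and 3.86 in treated Cfp1-/- cells, where the raw counts were 23 and 4. The treated ranges lay below the untreated ones in both lines. Bmp4 fell in WT (log2 -3.30, standard error 0.808, adjusted p = 0.00787) and in Cfp1-/- cells (log2 -3.90, standard error 0.904, adjusted p = 0.00585). Single libraries moved these values widely. In WT the value was -2.58 without replicate 1 of untreated, -4.24 without replicate 1 of treated and -2.70 without replicate 2 of treated cells. In Cfp1-/- cells it was -2.56 without replicate 1 and -4.60 without replicate 2 of untreated cells, -5.70 without replicate 1 of treated cells, and -3.10 (adjusted p = 0.0549) without replicate 2 of treated cells. The span of Bmp4 overlaps those of Gm15217 and Gm15222 on the opposite strand, which stranded counting keeps apart.

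Id3 (ENSMUSG00000007872, chromosome 4, 135699412 to 135701670, plus strand) gave 276 and 231 normalized counts in untreated WT, 73.4 and 117 in treated WT, 115 and 71.8 in untreated Cfp1-/-, and 13.3 and 8.68 in treated Cfp1-/- cells. Treated libraries were lower in both lines, and treated Cfp1-/- cells were lowest, with 13 and 9 raw counts. Id3 fell in WT (log2 -1.36, standard error 0.339, adjusted p = 0.00858) and in Cfp1-/- cells (log2 -3.04, standard error 0.419, adjusted p = 0.000338). The WT call was lost without replicate 1 of treated WT cells (-1.07, adjusted p = 0.0556). The difference of the responses, -1.68 ± 0.539, did not pass (adjusted p = 0.305).

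Id1 (ENSMUSG00000042745, chromosome 2, 152561987 to 152563146, plus strand, 1 exon block) gave 134 and 299 normalized counts in untreated WT and 172 and 312 in treated WT, but 38.9 and 33 in untreated and 40.9 and 23.1 in treated Cfp1-/- cells. Its treated and untreated replicates overlapped in both lines, with log2 fold changes of 0.21 ± 0.424 and -0.13 ± 0.502 that did not pass (adjusted p = 0.706 and 0.854). Id2 (ENSMUSG00000020644, chromosome 12, 25778666 to 25780957, minus strand) gave 295 and 844 in untreated WT and 498 and 1009.8 in treated WT cells, with overlap. In Cfp1-/- cells it gave 819 and 593 untreated and 374 and 278 treated, without overlap. Its log2 fold changes were 0.46 ± 0.458 in WT (adjusted p = 0.438) and -1.07 ± 0.465 in Cfp1-/- cells (adjusted p = 0.0822). The latter passed with the replicate block (-1.08, adjusted p = 0.0322) and with DESeq2 (adjusted p = 0.0214). It also passed without the filter on low counts (adjusted p = 0.0205) and with only the 2 groups in the fit (adjusted p = 0.0036). The same held without replicate 1 or replicate 2 of untreated WT cells (-1.12 in both). It did not pass without any 1 of the 4 Cfp1-/- libraries, where it ranged from -1.32 to -0.83 with adjusted p up to 0.313. In WT, Id2 was 1.39 (adjusted p = 0.0244) without replicate 2 of untreated cells and -0.15 without replicate 2 of treated cells.

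The response to doxorubicin did not differ detectably between the lines for any of the 10 genes by edgeR, where 0 passed against a background of 0.235% of all genes. At an unadjusted p under 0.05 there were 3, namely Tdgf1, Id2 and Id3, and DESeq2 called 1, Tdgf1. With 2 replicates per group this test leaves wide errors, from 0.193 for Tdgf1 to 1.19 for Bmp4 (standard error, log2), and a p that misses the threshold does not show equal responses.

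**Figure D4:**
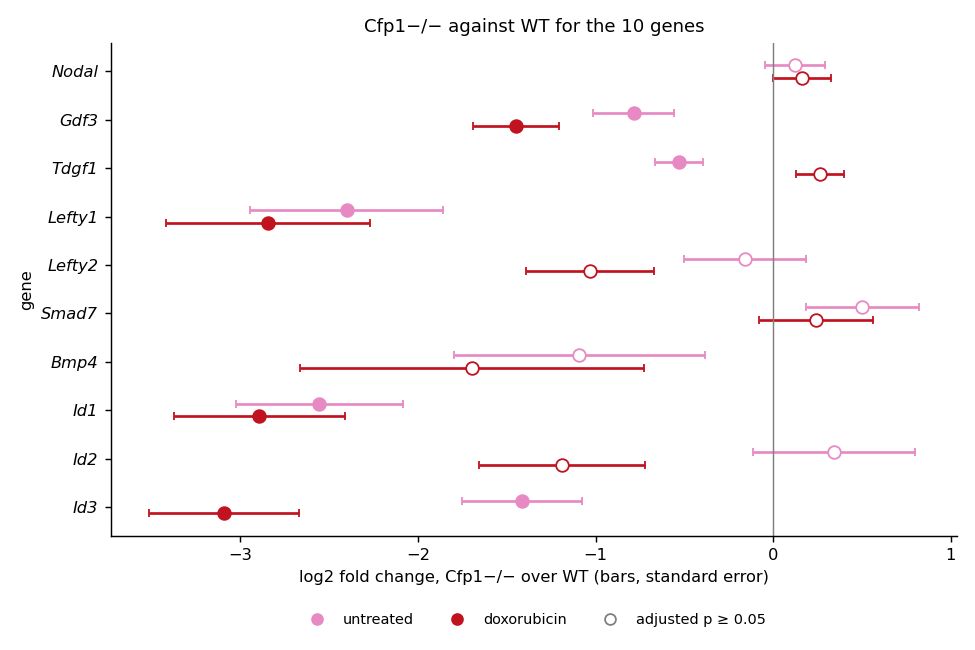
Log2 fold change of Cfp1-/- over WT (x axis, bars are the standard error) for each gene in untreated (pink) and treated cells (red), with open circles where the adjusted p was 0.05 or more. Lefty1, Gdf3, Id1 and Id3 had filled points at both treatments, from -0.78 to -3.09.

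Between the lines, 5 of the 10 genes were lower in untreated Cfp1-/- than in untreated WT cells, namely Lefty1, Id1, Id3, Gdf3 and Tdgf1, and none was higher. Of all genes 34.0% passed, 17.9% higher and 16.1% lower. In treated cells 4 were lower, Lefty1, Id1, Id3 and Gdf3, where 25.9% of all genes passed, 15.1% higher and 10.8% lower, and with the replicate block 7 were, with Lefty2, Id2 and Bmp4 added. The lines did not overlap for 5 of the 10 genes untreated and 7 treated, against 69.9% and 65.0% of all genes, and 1 and 2 of the 10 passed the study's limits, against 3.33% and 2.61%. As a median, the 10 genes had log2 values of -0.66 untreated and -1.32 treated, where the medians over all genes were 0.0059 and 0.0196. Scaling by total counts moved the median of all genes by 0.19 in the untreated and 0.09 in the treated comparison. It left 3 calls in untreated cells, ended those of Tdgf1 (-0.34, adjusted p = 0.0808) and Gdf3 (-0.59, adjusted p = 0.0678), and turned Lefty2 from -0.16 to 0.039.

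Id1 and Lefty1, which did not pass with doxorubicin in either line, were lower in Cfp1-/- cells at both treatments. Id1 was 5.88-fold lower in Cfp1-/- cells (log2 -2.56, standard error 0.47, adjusted p = 0.00328) untreated and 7.43-fold lower (log2 -2.89, standard error 0.482, adjusted p = 0.00316) treated, and no Cfp1-/- library reached a WT one. The untreated value was -1.88 without replicate 2 of untreated WT cells. Lefty1 had log2 values of -2.40 (standard error 0.541, adjusted p = 0.00835) untreated and -2.84 (standard error 0.574, adjusted p = 0.0073) treated, and its Cfp1-/- and WT libraries did not overlap at either treatment. For Lefty1 in untreated cells the value was -1.75 without replicate 2 of WT or without replicate 1 of Cfp1-/- cells, and -3.56 without replicate 2 of Cfp1-/- cells. In treated cells it did not pass without replicate 1 of Cfp1-/- cells (-2.54, adjusted p = 0.0633).

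Id3 was 2.66-fold lower (log2 -1.41, standard error 0.337, adjusted p = 0.0107) in untreated and 8.52-fold lower (log2 -3.09, standard error 0.422, adjusted p = 0.00134) in treated Cfp1-/- cells. The untreated call was lost without replicate 2 of untreated Cfp1-/- cells (-1.11, adjusted p = 0.0769). Gdf3 was 1.72-fold lower untreated (log2 -0.78, standard error 0.229, adjusted p = 0.0254) and 2.73-fold lower treated (log2 -1.45, standard error 0.244, adjusted p = 0.00335). Tdgf1 was 1.44-fold lower in untreated cells (log2 -0.53, standard error 0.136, adjusted p = 0.015), and its value in treated cells was 0.26 ± 0.136 (adjusted p = 0.183). The untreated call of Gdf3 was lost without any 1 of the 4 libraries, at -0.71, -0.85, -0.70 and -0.85 (adjusted p from 0.0613 to 0.135). That of Tdgf1 was lost without replicate 1 of WT (-0.44) or of Cfp1-/- cells (-0.40). The test of the difference between the untreated and treated values is that of the responses. It gave 0.79 ± 0.193 for Tdgf1 and -0.66 ± 0.332 for Gdf3, and neither passed.

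Nodal, Smad7, Bmp4, Id2 and Lefty2 did not pass between the lines in untreated cells, with log2 values of 0.12, 0.50, -1.09, 0.34 and -0.16 (adjusted p from 0.248 to 0.747). With the replicate block Smad7 was higher (0.48, adjusted p = 0.029) and Bmp4 lower (-1.28, adjusted p = 0.0016) in untreated Cfp1-/- cells. Without the block and with 1 library left out neither passed. Smad7 ranged from 0.21 to 0.76, and Bmp4 from -2.42 without replicate 1 of untreated Cfp1-/- cells to -0.37 without replicate 1 of untreated WT cells. In treated cells the values were 0.16 for Nodal, 0.24 for Smad7 and, below WT, -1.69 for Bmp4, -1.19 for Id2 and -1.03 for Lefty2 (adjusted p from 0.0619 to 0.613). With the replicate block Lefty2 (-0.97, adjusted p = 0.00171), Id2 (-1.10, adjusted p = 0.0467) and Bmp4 (-1.77, adjusted p = 0.00444) passed there. Lefty2 and Id2 passed there with DESeq2 too (adjusted p = 0.0114 and 0.021), without the filter on low counts and with only the 2 groups in the fit. They did not pass with either other scaling or with first runs alone. Without the block, Bmp4 was -3.49 without replicate 1 of treated Cfp1-/- cells and -0.76 without replicate 1 of treated WT cells, and it did not pass whichever library was left out (adjusted p from 0.145 to 0.683). Lefty2 and Id2 also passed without replicate 1 of treated WT cells, at -1.37 (adjusted p = 0.0328) and -1.61 (adjusted p = 0.0436), and without either untreated WT replicate, at -1.07 and -1.23, and Lefty2 without replicate 2 of untreated Cfp1-/- cells (-1.04, adjusted p = 0.049). Without replicate 2 of treated WT cells both were -0.59 and did not pass (adjusted p = 0.33 for Lefty2 and 0.454 for Id2). Id2 over Id1, within a library, was 2.2 to 3.24 in WT and 9.15 to 21 in Cfp1-/- cells.

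Lefty1 and Lefty2 were higher in replicate 2 than in replicate 1 in all 4 groups, by 1.47 to 3.5 times for Lefty1 and 1.08 to 1.89 times for Lefty2. Bmp4 and Smad7 were lower in replicate 2 in all 4 groups. Untreated WT replicate 1 had summed counts of 61953 for the ES cell markers and 14774 for the primed epiblast markers, and replicate 2 had 41526 and 24971. The part of these markers in the replicate spread of the 10 genes was not tested.

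**Figure D5:**
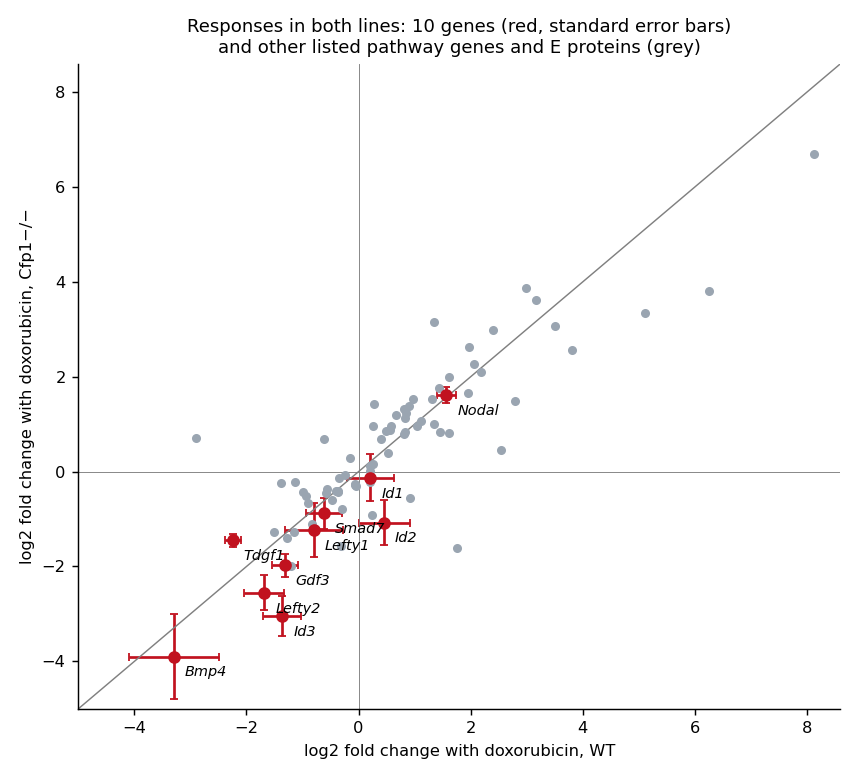
Log2 fold change with doxorubicin in WT (x axis) against Cfp1-/- cells (y axis) for the 10 genes (red, bars are the standard error) and the other listed pathway genes and E proteins that were tested (grey), with the line of equal change. Of the 10, Tdgf1 (-2.24, -1.45) lies above the line and Id3 (-1.36, -3.04) lies below it, and the 2 comparisons have no libraries in common.

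Of the 81 other listed genes of the 2 pathways, 80 were in the tables and 69 were tested. In WT cells 29 rose and 10 fell with doxorubicin, where 26.5% of all genes tested were higher and 21.8% lower, and in Cfp1-/- cells 31 rose and 10 fell, where 27.8% were higher and 21.0% lower. Their median log2 fold changes were 0.58 and 0.81, and those of all genes were 0.057 and 0.014. The genes named next are the largest changes among those that averaged 200 normalized counts or more, and genes below that mean, such as T in WT (-2.89) and Acvrl1 (3.61) and Eomes (-1.98) in Cfp1-/- cells, changed by more. Bmp7, Smad3 and Tgfbr3 were among the 5 largest rises in both lines. Bmp7, a BMP ligand, had log2 values of 3.50 in WT and 3.07 in Cfp1-/- cells. Smad3, which carries the Nodal signal as Smad2 does, had 2.18 and 2.11, and Tgfbr3, the TGF-beta co-receptor betaglycan, 1.96 and 1.66. Pcsk6, a convertase that processes Nodal, and Pmepa1, a TGF-beta feedback inhibitor, were among the 5 largest in WT (log2 1.62 and 1.58). Tgfb2 and Bmp1 were among the 5 largest in Cfp1-/- cells (log2 3.16 and 1.77). Pcsk6, Pmepa1, Tgfb2 and Bmp1 were each called higher in both lines. The ubiquitin ligase Trim33, which binds Smads, fell in both lines (log2 -1.51 in WT and -1.28 in Cfp1-/- cells), as did the Smad co-repressor Tgif1 (-1.16 and -1.28). Next among the largest falls were Skil (-1.13) and Fstl1 (-1.0) in WT, and Tgif2 (-1.09) and Rnf111 (-0.59) in Cfp1-/- cells. Fstl1, Tgif2 and Rnf111 were called lower in both lines, and Skil in WT alone. Without replicate 2 of treated Cfp1-/- cells the number called there was 26 in place of 41.

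By role, these counts are small and were not tested against each other or against the 26.5% (WT) and 27.8% (Cfp1-/-) of all genes that were higher and the 21.8% and 21.0% that were lower. Of 9 other genes tested from the list of BMP ligands, 4 rose in WT and 6 in Cfp1-/- cells, and none fell. Bmp1, which rose in both lines, is counted in this list but encodes a protease and not a ligand. Of the 4 Smads listed with the BMP branch, Smad1, Smad5 and Smad9, which carry the BMP signal, rose in both lines, by log2 0.83, 0.55 and 2.79 in WT and 1.13, 0.89 and 1.49 in Cfp1-/- cells, and Smad6 did not pass (these 4 were singled out after their values were seen). Of 5 other BMP targets, 1 rose in each line, Msx2. Of 10 shared and Nodal Smads and their nuclear partners, 3 rose and 6 fell in WT, and 2 rose and 4 fell in Cfp1-/- cells. Smad3 rose in both lines, but Smad2 fell in WT (log2 -0.56, adjusted p = 0.0117) and did not pass in Cfp1-/- cells (-0.38, adjusted p = 0.0604). Smad4, shared by the 2 branches, fell in both lines (-0.58 and -0.45). Of the 3 E proteins, the partners that Id proteins bind, Tcf4 (log2 -0.95 and -0.52) and Tcf3 (-0.37 and -0.41) fell in both lines, and Tcf12 did not pass in either line.

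None of the 69 genes differed in its response between the lines by edgeR, 11 did at an unadjusted p under 0.05, and 2, Tgfb2 and T, were called by DESeq2, with the replicate block or without the filter on low counts. Without replicate 1 of untreated WT cells edgeR called 1. Tgfb2 had log2 responses of 1.35 and 3.16, and T, a mesoderm regulator and Nodal target, of -2.89 and 0.71 in WT and Cfp1-/- cells.

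Between untreated lines 6 of the 69 genes were higher and 12 lower in Cfp1-/- cells, a smaller share than the 34.0% of all genes that passed, and with the replicate block 28 passed. Of those averaging 200 normalized counts or more, Pcsk6 (log2 1.61) and Tgfbr3 (1.54) were higher, as was the E protein Tcf4 (0.39), which is not one of the 69. Tgfb2 (-2.37), the Smad co-repressor Skil (-2.21), Fstl1 (-1.57), Dusp9, a BMP target phosphatase (-0.78), and Smad5 (-0.78) were lower. The number was 11 without replicate 1 of untreated Cfp1-/- cells.

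In treated cells 3 were higher and 10 lower, again a smaller share than the 25.9% of all genes, and 22 passed with the replicate block. The 3 were Tgfbr3 (log2 1.24), Pcsk6 (0.80) and the BMP receptor Bmpr1b (1.46, adjusted p = 0.0432), which averaged 123 normalized counts. Tcf4, outside the 69, was also higher (0.81). Of those averaging 200 or more, Skil (-1.30), Fstl1 (-0.99), Dusp9 (-0.97), the Smad partner Foxh1 (-0.87) and the activin receptor Acvr2b (-0.75) were lower. Dusp9, on the X chromosome, had 919 counts in the first and 0 in the second run of replicate 1 of treated Cfp1-/- cells, and without that second run its value was -0.64 (adjusted p = 0.0503). The number of genes called was 5 without replicate 2 of treated WT or of treated Cfp1-/- cells and 7 without replicate 1 of treated Cfp1-/- cells.

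Over the 8 libraries, the genes whose log2 normalized count was most like that of Nodal among 9498 tested genes with a mean of at least 200 were Arhgap22 (Pearson r = 0.997), Magel2 (0.994), Akr1b10 (0.994), Adamts2 (0.993) and Sec14l5 (0.991). For Id1, among 9499 genes, they were Rqcd1 (0.99), Prkab1 (0.986), Krt8 (0.986), Cdc37 (0.985) and Igf2 (0.984). These are descriptions, since the libraries share treatment and genotype, and they carry no test. Of the tested genes within 50 kb of Nodal, Eif4ebp2, 7159 bases away, rose in WT cells (log2 1.11, adjusted p = 0.0218) and had a log2 value of 0.89 in Cfp1-/- cells (adjusted p = 0.0518).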

How the data were processed

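RNA-Seq libraries of 16 samples were grouped by their labels. The authors aligned paired reads to NCBIm37 (mm9) with STAR (2.2.1 in the submitters' processing notes) and deposited raw counts per gene (Ensembl release 67) from strand-specific HTSeq counting. The deposited normalized counts are a signal made by the authors, in which summed runs are scaled by size factors from DESeq. Symbols and exon lengths were matched for 22324 of 22375 identifiers.

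Runs were summed and fitted with edgeR 4.0.16 in R 4.3.3 (filterByExpr, TMM, 1 coefficient per group, quasi-likelihood test) over all 8 libraries and 15758 genes, with Benjamini-Hochberg adjustment. Each standard error is the fold change over the square root of the F statistic. The scripts were tested on simulated counts. Total counts of 14880589 to 29422711 limit the precision of low genes.

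Alternatives were DESeq2 1.42.0, its size factors or total count scaling in edgeR, no filter, the 2 groups alone, first runs alone, the second run of replicate 1 of treated Cfp1-/- cells (the affected run) left out, the study's limits, the replicate block, and each replicate left out. The labels give the replicate numbers but not what they share. Deviations of same-numbered libraries from their group means correlated in all 6 pairs of groups (0.14 to 0.451), and the replicate block took the numbers as pairs. With 2 replicates per group these correlations cannot show that the libraries were paired, so calls made only with the block rest on that assumption.

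The members and lists were chosen with earlier results of these data known. Of the other listed genes, the up to 5 largest changes per direction were named among those with an adjusted p under 0.05 that averaged 200 normalized counts or more. Cxxc1 was named as the check of the deletion. T, Acvrl1, Eomes, Bmpr1b, Msx2, Smad1, Smad2, Smad4, Smad5, Smad6, Smad9, Tcf3 and Tcf12 were named in the text after their values were seen. ChIP-Seq and RT-qPCR were not analysed here.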

Additional observations from a re-analysis of the deposited data

Results flagged for a closer look

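Id2 was the only member of the 10 for which the same-numbered replicates of the 2 lines all moved in opposite directions with doxorubicin. In WT cells both replicates were higher when treated, and in Cfp1-/- cells both were lower. The difference of the log2 fold changes was -1.53, with an adjusted p of 0.447 by edgeR's quasi-likelihood test, 0.191 with the replicate block and 0.246 by DESeq2, so the difference did not pass.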

How the results depend on the processing

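Under 8 alternatives other than leaving out a library, 360 of 390 values for the 10 genes kept their direction and side of the threshold, 21 passed newly, 3 no longer passed and 6 turned. The replicate block accounted for 9 of the 21, all given in the report, and changed no other member call. DESeq2, the fits on 2 groups and no filter added 4 each. Counting error is large for Bmp4 and Id3 in treated Cfp1-/- cells, with raw counts of 23 and 4 and of 13 and 9.

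Directions that turned, none of them called, were Id1 with doxorubicin in Cfp1-/- cells (0.084 with total count scaling, 0.30 with first runs alone), the response difference of Nodal (-0.065 with total count scaling, -0.015 without the affected second run) and of Id1 (0.22 with first runs alone), and Lefty2 between untreated lines (0.039 with total count scaling). The cause was not tested. With 1 library left out, the ranges were -0.29 to 0.88 for Id1 and -0.15 to 1.39 for Id2 in the WT response and -0.61 to 0.23 for Id1 in the Cfp1-/- response. For the response difference they were -0.14 to 0.20 for Nodal, -1.13 to 0.72 for Lefty1, -0.90 to 0.18 for Smad7, -1.06 to 0.16 for Id1 and -2.40 to 0.74 for Bmp4. Between untreated lines they were -0.043 to 0.30 for Nodal, -0.62 to 0.37 for Lefty2 and -0.22 to 1.28 for Id2, and between treated lines -0.40 to 0.68 for Smad7.

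With the study's limits of 2.5-fold and a mean of 200 the WT response counted 7 other pathway genes and 1246 genes in all, and the Cfp1-/- response 4 members, 10 other pathway genes and 1199 in all. Between lines these limits counted 1 member, 3 other pathway genes and 525 in all untreated, and 2, 0 and 412 treated. For the response difference edgeR called 0 members, 0 other pathway genes and 37 genes in all, where DESeq2 called 1, 2 and 216, no filter gave 2 other pathway genes and 133 in all, and the replicate block gave 2 and 243. Between untreated lines total count scaling left 3 members and the replicate block gave 28 other pathway genes, and between treated lines the block gave 7 members and 22 other pathway genes. With 1 library left out the ranges were 26 to 43 other pathway genes for the Cfp1-/- response, and 0 to 1 other pathway genes and 0 to 13 in all for the response difference. Between untreated lines they were 3 to 5 members, 11 to 21 other pathway genes and 3075 to 5624 in all, and between treated lines 5 to 13 other pathway genes and 1822 to 4110 in all. A lone library in a group is assumed to vary like the others.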
